A study of Drosophila melanogaster with 2 samples.

Results

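Ravus-eGFP occupancy was mapped by chromatin immunoprecipitation with sequencing (ChIP-seq) in whole Drosophila melanogaster embryos aged 0 to 24 h. The flies carried Ravus joined to enhanced green fluorescent protein, and an antibody against GFP was used for the pulldown. The labels give 1 group of 2 biological replicates and no second genotype, treatment or stage, and the embryos mix all cell types. Every group described below shares the tag and the antibody, the sex of the embryos is not recorded, and the labels name no driver of the fusion gene. The peaks described are the 5027 low-ranked peaks, the weak end of the authors' series-level ranked lists that no thresholded list contains. The 2 ranked lists held 9602 and 9224 peaks, of which 8665 were identical intervals, and joining them gave 10161 peaks. Low-ranked peaks were chosen by deposited signal, and the 5080 peaks in its lower 50% were taken. From these, 11 that overlapped a thresholded peak of any of 4 lists by at least 1 bp were dropped, as were 42 that lay off the 7 chromosome arms. The low-ranked peaks were thus 5027 of the 10046 joined peaks on the arms. The other joined peaks served for comparison: 2814 higher-ranked peaks also outside every thresholded list, 724 that overlapped a thresholded list other than the conservative one, and 1481 that overlapped the authors' conservative list.

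In ChIP-seq, DNA that is crosslinked to the tagged protein is sheared, pulled down and counted along the genome, and a peak marks a stretch with more fragments than the caller's background. The irreproducible discovery rate (IDR) compares how the same peaks rank in a pair of lists, so that peaks whose rank is not repeated receive a high IDR. A ranked list is deliberately long and runs into weak signal, and a thresholded list is cut where ranks stop being repeated. Weak peaks in such lists can hold low occupancy, occupancy in few cells of a mixed sample, or uneven background, and a peak list alone does not separate these. Promoters are the stretches at transcription start sites where the polymerase is loaded, and coding exons of the fly are richer in G and C than its introns.

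The 9 windows of 101 bp printed here show what DNA lay under these summits. The first 5 are the low-ranked peaks of highest signal among those that both replicates' lists contained and that held GGGCGG, a GC box of the kind bound by Sp and KLF zinc finger proteins, which had the highest ratio of summit to flank among the motifs searched. Capitals mark GGGCGG or its complement. The next 2 are the low-ranked peaks of highest signal with none of the listed motifs, and the last 2 are conservative peaks of very high signal, given for contrast and searched for TATAAA, of which neither held a copy. All are read 5′ to 3′ on the plus strand of dm6 from the RefSeq Release 6 sequence.
Coding exon of Hpd, chr3L:20438743-20438843: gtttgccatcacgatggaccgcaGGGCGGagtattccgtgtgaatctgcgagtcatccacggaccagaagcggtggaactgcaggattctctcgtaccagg
Coding exon of Syn1, chr3L:21760201-21760301: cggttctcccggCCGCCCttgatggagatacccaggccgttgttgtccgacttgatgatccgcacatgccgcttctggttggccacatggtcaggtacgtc
Promoter of CG31921, within Plc21C, chr2L:332457-332557: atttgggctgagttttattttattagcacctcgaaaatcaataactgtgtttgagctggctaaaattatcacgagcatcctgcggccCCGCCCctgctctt
Intergenic, nearest start site lncRNA:CR44720, chr3L:11278592-11278692: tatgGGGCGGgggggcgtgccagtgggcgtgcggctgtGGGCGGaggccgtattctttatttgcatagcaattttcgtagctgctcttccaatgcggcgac
Intron of CG2865, chrX:2287056-2287156: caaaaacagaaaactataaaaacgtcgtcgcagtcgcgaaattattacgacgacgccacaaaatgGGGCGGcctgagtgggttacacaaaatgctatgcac
Intron of side-II, no listed motif, chr2L:14969979-14970079: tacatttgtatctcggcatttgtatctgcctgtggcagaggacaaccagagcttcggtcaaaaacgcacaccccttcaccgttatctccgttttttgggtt
Intron of Raf, no listed motif, chrX:2318560-2318660: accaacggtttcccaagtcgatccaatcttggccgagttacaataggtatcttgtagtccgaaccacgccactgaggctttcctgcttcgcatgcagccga
Conservative peak at the promoter of CG14100, chr3L:19590563-19590663: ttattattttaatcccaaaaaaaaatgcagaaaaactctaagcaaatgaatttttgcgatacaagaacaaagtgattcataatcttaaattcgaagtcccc
Conservative peak in an intron of CG11050, chr2L:6612667-6612767: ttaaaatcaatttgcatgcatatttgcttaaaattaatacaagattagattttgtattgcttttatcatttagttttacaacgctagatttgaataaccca

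These windows are examples, and the choice of 5 of them for an all-G and C motif, which 335 of 5027 low-ranked peaks held, and of conservative peaks of extreme signal in part sets their base composition. The Hpd exon window (Hpd encodes 4-hydroxyphenylpyruvate dioxygenase of tyrosine breakdown) was 57.4% GC against 48.5% in its own flanks, and its signal was 19.1 in replicate 1 and 24.4 in replicate 2. The Syn1 exon window (a syntrophin of the dystrophin complex) was 60.4% GC against 39.6% in its flanks. The window beside lncRNA:CR44720 held 2 copies of the GC box and was 60.4% GC against 40.6%. The Raf intron window (Raf is the kinase of the Ras pathway) was the exception, with 52.5% GC against 55.4% in its flanks. Its signal was 9.54 in replicate 1 and 34.3 in replicate 2, on the scales of the replicates' own lists. At the CG14100 promoter the conservative window was 27.7% GC against 39.6%, and in the CG11050 intron it was 23.8% against 47.0%.

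The choice of the peaks fixed their signal, so it is described only. Signal in the low-ranked peaks ran between 34.5 and 42.6 with a median of 37.4, against medians of 49.3 in the higher-ranked unthresholded peaks, 72.9 in the other thresholded peaks and 132 in the conservative peaks. The strongest peak inside the boundary had a signal of 42.594 and the weakest one outside it 42.603, so the boundary cut a continuous range. All 5027 low-ranked peaks were 310 bp wide with the summit at their centre. Of these, 3799 were in both series lists, 835 in the first alone and 393 in the second alone. In the first list 4064 of 4634 low-ranked peaks (87.7%) shared the list's lowest −log10 IDR, an IDR of 0.795. The highest −log10 IDR of any low-ranked peak was 0.963 in the first list and 1.17 in the second, and the authors' limit of 0.01 is a value of 2.

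Support in the replicates is described only, since keeping the lowest signal builds a lower support into the low-ranked peaks. Removing thresholded peaks, which are those repeated in rank, took out 11 of 5080 peaks and could change this support little. Both replicates' own ranked lists held 3022 of the 5027 (60.1%, exact Clopper-Pearson 95% interval 58.7 to 61.5%), against 83.7% of higher-ranked unthresholded peaks, 87.8% of other thresholded peaks and 99.7% of conservative peaks. A further 896 (17.8%) overlapped replicate 1 only, 1016 (20.2%) replicate 2 only and 93 (1.85%) neither. As background, an interval of 310 bp placed at each arm position in turn overlapped the replicate 1 list at 21.7% of positions and the replicate 2 list at 15.8%. The series lists were built from these same libraries, so the overlap is no independent repeat. These and all later intervals cover counting error over peaks only. Peaks are not replicates, and the 2 libraries' own summits are given as the spread.

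**Figure D1:**
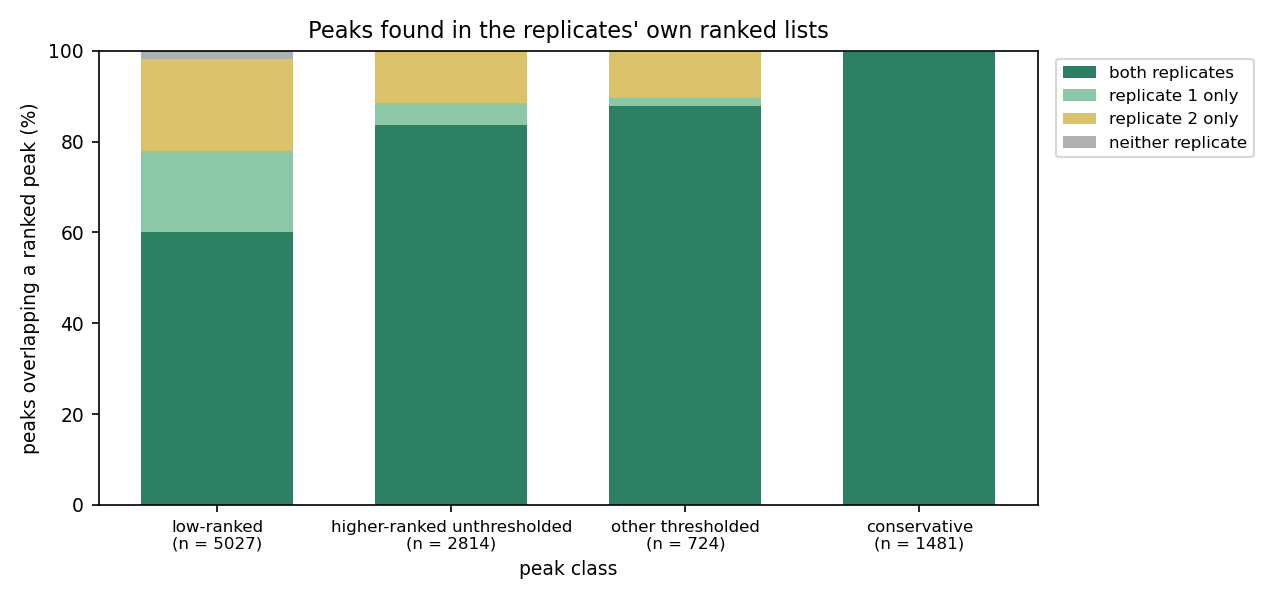
Percent of peaks in each class (bars) that overlap by at least 1 bp a peak in the ranked lists of both replicates, of replicate 1 only, of replicate 2 only or of neither. Both replicates held 60.1% of low-ranked peaks, against 99.7% of conservative peaks, and the single-replicate shares of low-ranked peaks were 17.8% and 20.2%.

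Where both replicates held a low-ranked peak, their summits lay farther apart. The median gap between the replicates' summits was 45 bp (quartiles 15 and 93) in 3022 low-ranked peaks, against 17 bp (quartiles 6 and 35) in 1476 conservative peaks. It was 34 bp in higher-ranked unthresholded and 30 bp in other thresholded peaks. Summits fell within 25 bp of each other in 35.2% of low-ranked and 63.1% of conservative peaks. Signal and rank were taken over all low-ranked peaks that each replicate's list held, 3918 in replicate 1 and 4038 in replicate 2. The median signal was 18.1 in replicate 1 and 21.04 in replicate 2, against 57.0 and 75.8 for conservative peaks taken likewise. The median rank of the low-ranked peaks was 11171 of 52143 peaks in replicate 1 and 9858.5 of 37242 in replicate 2.

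Base composition set the low-ranked summits apart from the conservative summits. GC content in the 101 bp at the summit was 46.2% ± 11.0 (SD over 5027 peaks), against 42.6% ± 7.76 in windows centred 300 bp to each side of the same peaks, a difference of 3.59 points (95% interval 3.23 to 3.95). The difference was 3.87 points at the summits of replicate 1 and 3.23 points at those of replicate 2. The sign was opposite in each stronger class: −3.69 points in higher-ranked unthresholded peaks, −9.68 in other thresholded peaks and −13.8 in conservative peaks, whose summits were 30.5% ± 8.49 GC. The replicates' own summits kept these signs, with −3.30 and −3.54 points in the higher-ranked unthresholded peaks and −13.5 and −13.5 points in the conservative peaks. Summits were richer in GC than their flanks in 63.8% of low-ranked peaks, against 10.4% of conservative peaks and 50.6% of all 101 bp windows tiled over the arms.

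**Figure D2:**
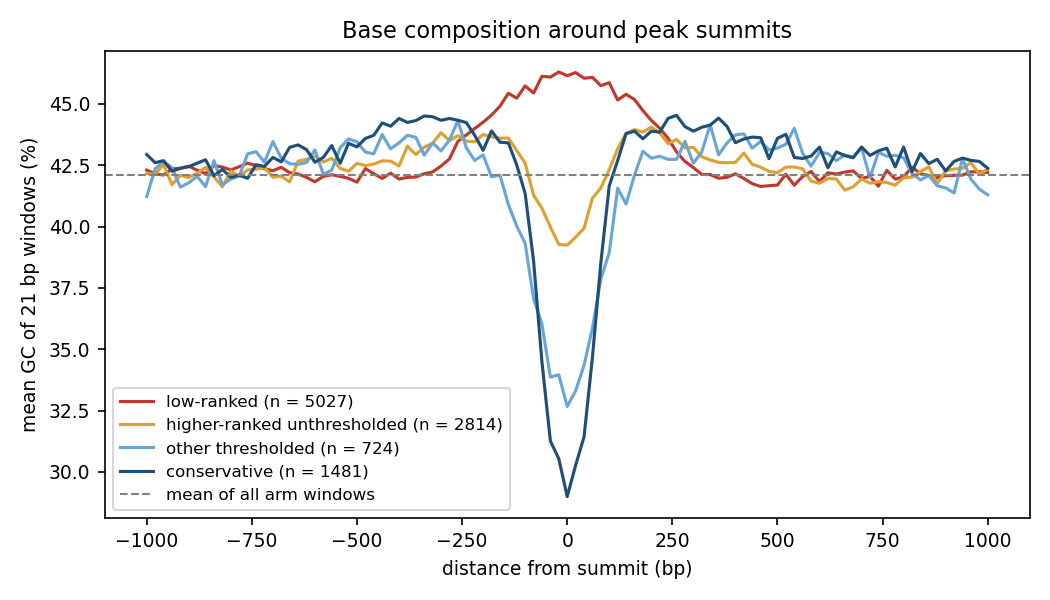
Mean GC content of 21 bp windows (%) against distance from the summit (bp) for the 4 peak classes, with the mean of all tiled arm windows dashed. The low-ranked peaks rise to 46.1% at the summit over a broad hump, against a narrow dip to 29.0% in the conservative peaks.

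The GC gain was present in each main annotation class. Low-ranked summits in coding sequence were 56.3% GC, against 52.6% in all coding windows of the arms, and stood 8.95 points above their own flanks. Those flanks were 47.4% GC, lower than coding windows as a whole. Intronic low-ranked summits were 43.1% GC against 39.96% in all intron windows, intergenic ones 44.2% against 40.7%, and promoter ones 45.0% against 42.6%. Set against their own flanks, their gains were smaller than in coding sequence: 1.67 points in introns, 3.47 in intergenic DNA and 2.11 at promoters. Windows of at least 60% GC made up 9.79% of low-ranked summits (8.98 to 10.6%), against 6.79% of higher-ranked unthresholded summits, 0.743% of conservative summits and 3.91% of arm windows. Windows under 30% GC made up 9.15% of low-ranked summits, against 55.4% of conservative summits and 13.7% of arm windows. When low-ranked peaks were ordered by signal and cut into 4 groups of equal size, the difference from the flanks was 4.34, 4.39, 3.31 and 2.34 points, weakest group first. The strongest low-ranked group was thus nearest to the higher-ranked unthresholded peaks.

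The low-ranked peaks were not uniform in this respect. A dip of 10 points or more below the flanks was seen in 755 low-ranked peaks (15.0%), against 36.8% of higher-ranked unthresholded peaks, 65.8% of conservative peaks and 16.9% of arm windows. A gain of 10 points or more was seen in 1603 low-ranked peaks (31.9%), against 19.2% of higher-ranked unthresholded peaks, 3.31% of conservative peaks and 16.9% of arm windows. These groups were formed after their values had been seen and are described only. The 755 peaks with a dip had 28.2% of summits at promoters and 2.52% in coding sequence, against 19.1% and 24.3% for the 1603 with a gain. Among their promoter summits, 160 of 213 (75.1%) lay upstream of the start site, against 125 of 306 (40.8%) for the peaks with a gain. TATAAA, whose letters themselves count towards a dip, was in 27.9% and 2.62% of these groups' windows. The X chromosome held 17.6% of the peaks with a dip and 9.11% of those with a gain. Support in both replicates was alike in value, 61.99% and 61.7%.

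Promoters held a smaller share and coding exons a larger share of low-ranked than of conservative summits. Summits no more than 500 bp from a start site counted as promoter summits, those left were matched to 5′ UTRs, then coding sequence (CDS), then 3′ UTRs, then any further exons, and the remainder were intronic or intergenic. Promoters held 1030 low-ranked summits (20.5%, 19.4 to 21.6%), against 52.2% of conservative summits and 13.3% of arm bases. The share was 18.9% at replicate 1 summits and 21.5% at replicate 2 summits. CDS held 898 low-ranked summits (17.9%, 16.8 to 19.0%), against 2 of 1481 conservative summits (0.135%) and 13.4% of arm bases, and the replicate values were 17.6% and 17.8%. Higher-ranked unthresholded peaks lay between, with 31.0% in promoters and 8.21% in CDS.

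**Figure D3:**
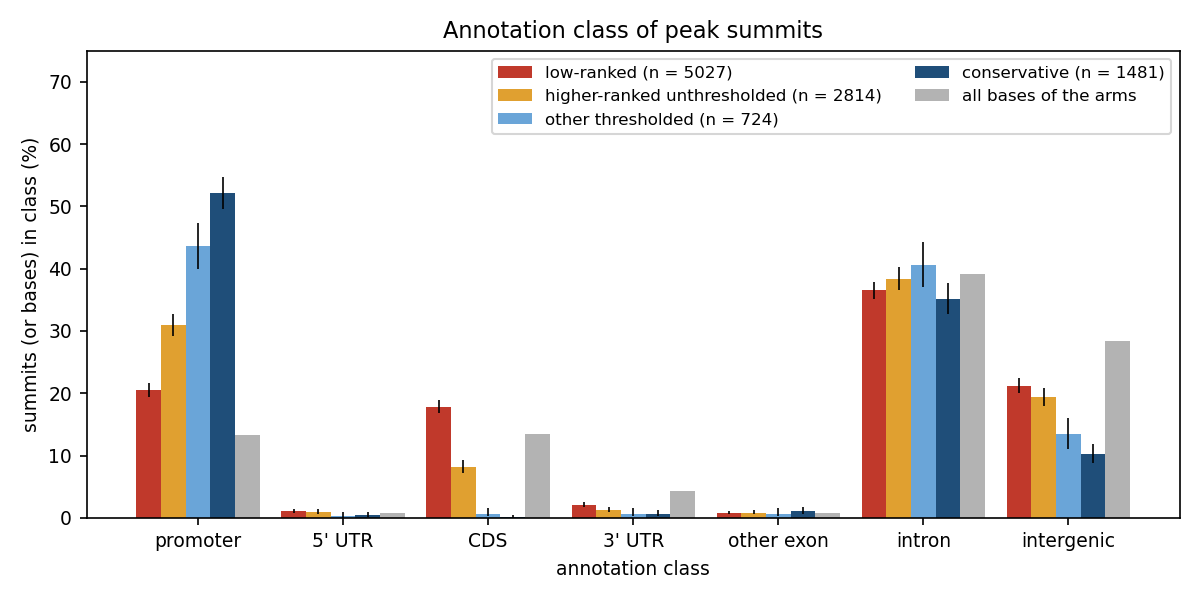
Percent of summits in each annotation class for the 4 peak classes, beside the percent of arm bases (grey). Error bars are exact 95% intervals over peaks. CDS holds 17.9% of low-ranked summits against 0.135% of conservative summits, and promoters hold 20.5% against 52.2%.

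Introns held 36.5% of low-ranked summits, against 35.2% of conservative summits and 39.1% of bases. Intergenic DNA held 21.2%, against 10.3% and 28.3%. The share in 3′ UTRs was 2.07%, against 0.675% and 4.31%, and in 5′ UTRs 1.05%, against 0.473% and 0.758%. Promoter shares differed by replicate support, with 15.4% (13.1 to 17.9%) of the low-ranked peaks seen in replicate 1 only and 26.2% (23.5 to 29.0%) of those seen in replicate 2 only. The CDS share was 17.1% and 17.5% in the same groups.

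At promoters the low-ranked summits were spread around the start site. The median promoter summit was 16 bp upstream (−16 bp, quartiles −184 and 200) in low-ranked peaks, against −134 bp (quartiles −217 and −76) in conservative peaks. Upstream summits were 537 of 1030 (52.1%, 49.0 to 55.2%), against 85.6% of conservative promoter summits. Between them lay higher-ranked unthresholded peaks with 70.1% and other thresholded peaks with 82.0%. The replicates' own summits gave 52.6% and 50.6% for low-ranked peaks, against 86.5% and 85.9% for conservative peaks. The stretch from −150 to −51 bp held 14.0% of low-ranked and 37.3% of conservative promoter summits. It held 30.1% of higher-ranked unthresholded and 37.0% of other thresholded promoter summits. Over all summits the median distance to a start site was 2116 bp in low-ranked and 446 bp in conservative peaks.

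**Figure D4:**
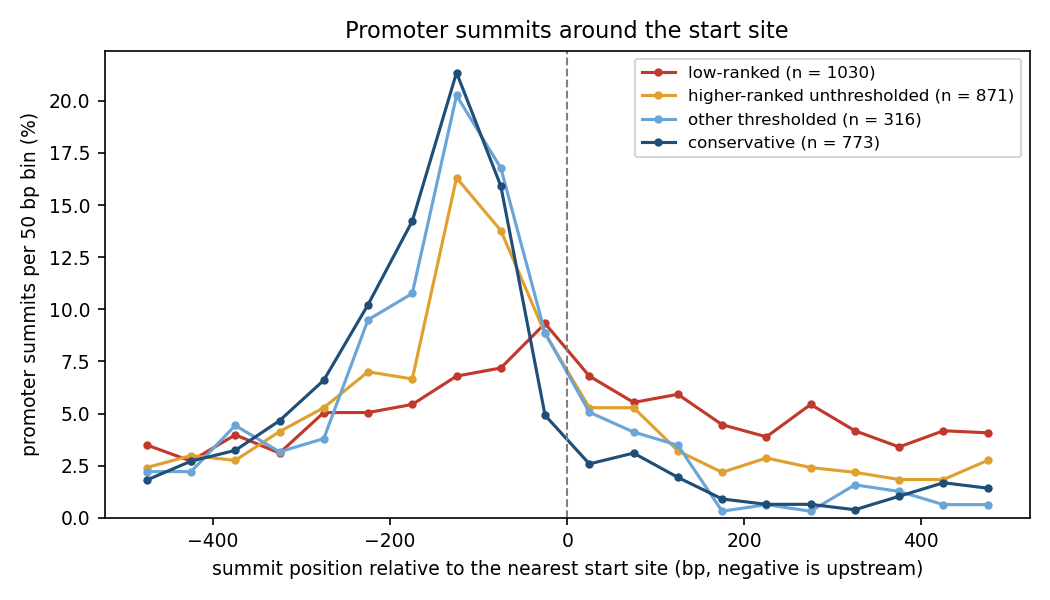
Percent of promoter summits in bins of 50 bp against position relative to the nearest start site (bp, negative is upstream), by peak class. Low-ranked summits form a low, broad profile on both sides of the start site, with 14.0% between −150 and −51 bp against 37.3% in the conservative class.

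Of 23 motifs searched on both strands of the 101 bp windows, 4 had a summit interval wholly above the interval of the flanks in low-ranked peaks and 3 had one wholly below it, against 6 and 8 in conservative peaks. GGGCGG was in 335 of 5027 low-ranked summit windows (6.66%, 5.99 to 7.39%) and 3.87% of their flank windows, against 0.945% and 5.37% for conservative peaks, and 3.47% of arm windows held it. The share was 6.66% and 6.34% at the replicates' own summits. CAGCAGCAG was in 1.89% of low-ranked summit windows and 1.17% of flanks, GCNGCNGC, which overlaps it, in 7.34% and 5.36%, and CAGCTG, an E-box of the kind bound by basic helix-loop-helix proteins, in 5.77% and 4.62%. Higher-ranked unthresholded peaks had a CAGCAGCAG gain of the same ratio, with 1.46% at summits and 0.906% in flanks. Their shares were 3.87% and 4.42% for GGGCGG, 5.08% and 5.21% for GCNGCNGC, and 5.12% and 4.60% for CAGCTG. Within windows of at least 60% GC, 24.2% of low-ranked summits held GGGCGG (20.5 to 28.2%), against 17.2% of arm windows. Between 40 and 50% GC the shares were 4.12% (3.19 to 5.22%) and 3.12%.

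GAGAG, the core of the element bound by GAGA factor, was in 12.3% of low-ranked summit windows (11.4 to 13.2%) and 11.7% of their flanks, against 8.17% and 18.1% for conservative peaks and 11.5% of arm windows. CACACA was in 9.03% and 8.66%. TATAAA was in 9.93% of low-ranked summit windows and 11.6% of flanks, against 27.0% and 9.79% for conservative peaks. GCCAT, the core of the Pho site, was in 21.9% and 20.5%, against 19.6% of arm windows. Over all 6-mers found in at least 2% of windows, the 50 with the highest ratio of summit to flank averaged 4.88 G or C bases in low-ranked and 0.68 in conservative peaks. The highest ratio of any was 1.75 in low-ranked peaks, for a run of C, against 4.54 in conservative peaks.

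The X chromosome carried fewer low-ranked peaks than its length. It held 565 of 5027 (11.2%, 10.4 to 12.1%), against 20.7% (18.7 to 22.9%) of conservative peaks, and is 17.1% of arm length. That is 24.0 low-ranked peaks per Mb on X and 40.7 per Mb over 2L, 2R, 3L and 3R. The X share was 13.8% in higher-ranked unthresholded and 17.7% in other thresholded peaks. Among low-ranked peaks in CDS the X held 7.91% (6.23 to 9.87%), against 17.7% of CDS bases. The low X share in CDS was shared by higher-ranked unthresholded peaks, at 5.19% (2.71 to 8.90%). In introns the X held 13.1% of low-ranked and 27.8% of conservative summits, against 19.0% of intron bases. At promoters the shares were 13.4% and 17.6%, against 16.3% of promoter bases. In intergenic DNA the 2 classes were close, at 8.24% (6.66 to 10.1%) and 9.87% (5.63 to 15.8%), against 13.6% of bases. The X share was 11.0% (9.07 to 13.3%) of the low-ranked peaks seen in replicate 1 only and 13.8% (11.7 to 16.1%) of those seen in replicate 2 only. Over all arm peaks of the replicates' own ranked lists it was 14.3% in replicate 1 and 14.3% in replicate 2. The 13.8% of peaks seen in replicate 2 only was thus near the share of its whole list. In the lower part of each replicate's list the X share was not lower. It was 15.5% (15.1 to 15.9%) of 25720 peaks in replicate 1 and 15.2% (14.6 to 15.7%) of 18518 in replicate 2. A fall in X share towards weak peaks was thus not seen within the replicates' own lists. Chromosome 4 had 28 low-ranked peaks and Y had 1.

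**Figure D5:**
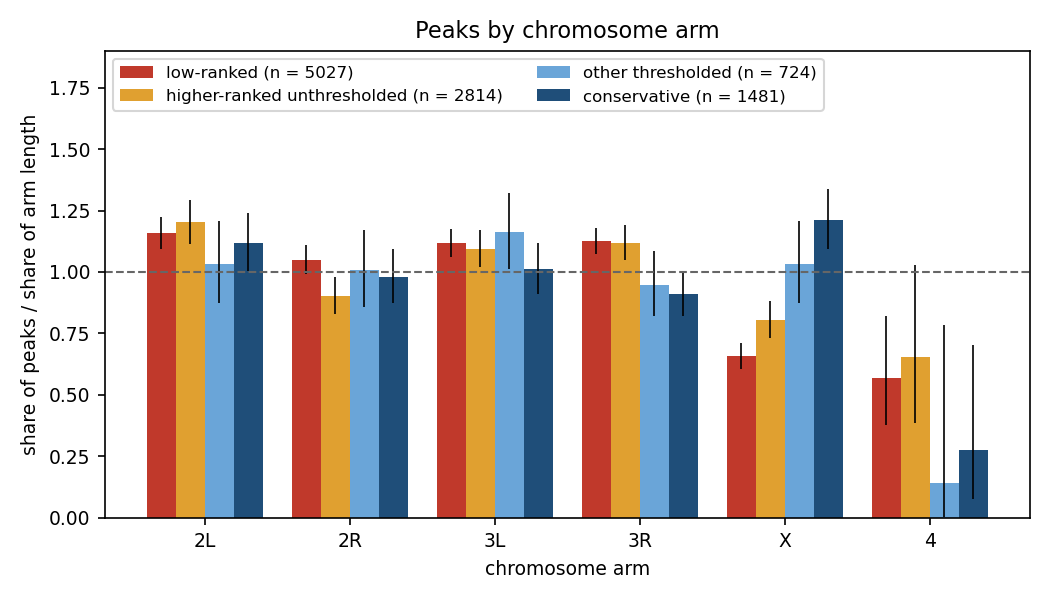
Share of peaks on each arm divided by the share of arm length, for the 4 peak classes (Y, with 1 low-ranked peak, is left out). Error bars are exact 95% intervals over peaks and the dashed line marks a ratio of 1. On X the ratio is 0.657 for low-ranked and 1.21 for conservative peaks.

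Repeats held fewer low-ranked summits than their share of the arms. Summits lay in soft-masked sequence in 14.7% of low-ranked peaks, against 28.6% of conservative peaks and 20.9% of arm bases. They lay in annotated transposable elements in 56 low-ranked peaks (1.11%), against 0.995% of higher-ranked unthresholded peaks, 0.203% of conservative peaks and 5.91% of bases. All arm bases were counted, and whether reads could be placed in repeats was not examined. Low-ranked peaks lay a median of 18312 bp from the nearest thresholded peak, against 31853 bp over arm positions taken at steps of 10 bp. Of low-ranked peaks 20.1% lay within 5000 bp of one, against 13.4% of positions. Within 1000 bp the shares were close, at 3.78% and 3.47%. The positions covered all 7 arms, Y among them, and whether a peak could be called at each was not examined. Only 3 neighbouring pairs of low-ranked peaks overlapped, and the median gap between neighbours was 15322.5 bp.

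A low-ranked peak stood at a promoter of 1226 of 18277 genes (6.71%), and 89 of these genes also had a thresholded promoter peak. Among protein-coding genes 1032 of 13968 (7.39%) had a low-ranked one. A conservative promoter peak stood at 7.10% of protein-coding genes and 5.89% of all genes, from 1481 conservative against 5027 low-ranked peaks. These shares are the background for the gene lists that follow. No list was tested. Of the cytoplasmic ribosomal protein genes, 13 of 92 had a low-ranked promoter peak (14.1%, 7.74 to 22.95%), against 15 with a conservative one. RpS14b had a signal of 17.6 in replicate 1 and 25.9 in replicate 2, and RpL18 had 17.1 and 26.1. RpS14b lies beside its near-identical copy RpS14a, and reads from such copies may not be told apart. Among mitochondrial ribosomal protein genes 3 of 73 had one, and each of those 3 peaks was nearest to the start site of a neighbouring gene.

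Genes for small stable RNAs shared peaks. The 15 tRNA genes of 290 with a low-ranked promoter peak had 12 peaks among them, against 3 tRNA genes with a conservative one. The peak at tRNA:Gln-CTG-2-4 had a signal of 8.02 in replicate 1 and 32.1 in replicate 2. The 13 snoRNA genes of 269 had 9 peaks, 1 of which covered snoRNA:Psi28S-1175a and its neighbours snoRNA:Psi28S-1175c and snoRNA:Me28S-G2173. The 5 spliceosomal snRNA genes of 32 (15.6%, 5.28 to 32.8%) had 3 peaks, against 0 with a conservative one. The peak shared by snRNA:U6:96Ab and snRNA:U6:96Ac had a signal of 23.9 in replicate 1 and 13.0 in replicate 2. Copies within the tRNA and snRNA families can be near-identical, so placement among them may be uncertain and was not examined. Of the lncRNA genes 103 of 1945 (5.30%) had one, and of the 111 histone genes 0.

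The Hox, gap, pair-rule and segment polarity, dorsoventral, Notch and ecdysone lists had between 1 and 3 genes each with a low-ranked promoter peak. Dfd was the 1 of 8 Hox genes with a low-ranked promoter peak, at 12.3 in replicate 1 and 20.1 in replicate 2, and hb, a gap gene, had 18.5 and 19.6. The segment polarity gene ptc, which encodes the Hedgehog receptor, was found in replicate 2 only, at 28.7, and tkv, a BMP receptor, likewise at 19.9. In the Notch list 3 of 13 genes had one: the ligand Delta in replicate 2 only at 29.1, the transcription factor Su(H) at 11.2 and 17.9, and the target E(spl)mbeta-HLH at 16.9 and 25.7. For the nuclear receptor gene EcR the values were 16.1 and 35.2, and for vnd, a neural patterning homeobox gene, 22.1 and 15.6. Replicate 1 thus lacked a peak at ptc, tkv and Delta that replicate 2 held. Of all 1030 low-ranked promoter summits, 266 belonged to peaks in replicate 2 only and 138 to peaks in replicate 1 only. Such support was thus not particular to these genes.

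Among chromatin regulators, ph-p and esc were the 2 of 17 Polycomb group genes, and trx, ash2 and skd the 3 of 13 trithorax group genes, although the ash2 peak was nearer to the start site of puf. The trx peak had a signal of 13.1 in replicate 1 and 26.02 in replicate 2, and its summit was 70 bp upstream of the start site. The insulator gene CTCF had 25.6 and 29.6, and esc was found in replicate 1 only, at 24.4. At ph-p and skd a thresholded peak also stood at a promoter. None of the 9 MADF-BESS genes and none of the 18 heat shock genes had a low-ranked promoter peak, and with a low-ranked background of 7.39% lists this short can hold 0. A conservative promoter peak stood at 3 and 5 of them.

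Cell structure and tissue genes were represented by few members each. The myosin heavy chain gene zip had 26.6 in replicate 1 and 19.99 in replicate 2, alphaTub84B was found in replicate 1 only at 16.3, and Act57B had 15.5 and 18.5, so 3 of 14 cytoskeleton genes had one. Of 15 neuronal genes pros, a neural fate regulator, had 21.8 and 22.9, and the potassium channel gene Sh had a peak in the series lists that neither replicate's list held. A low-ranked promoter peak also stood at 2 of 11 tracheal genes, trh (whose peak was nearer to lncRNA:CR45378) and tal-1A, at 2 of 15 muscle and heart genes, Tm1 and wupA, and at 2 of 12 epidermal genes, shn and shg. So did 2 of 18 cell cycle genes, dup (whose peak was nearer to SRPK) and stg, and 1 each of the translation factor (pAbp), glycolysis (Ldh) and hemocyte (ush) lists. Of these genes trh, shn, pAbp, Ldh and ush also had a thresholded promoter peak. Of 11 proneural, 9 gut and yolk and 14 germline genes, 0 had one. With lists of this size the intervals are wide: for the glycolysis list, 1 of 12, it ran between 0.211 and 38.5%.

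Assigned to the nearest start site, the low-ranked peaks fell to 3724 genes, of which 2855 had 1 peak and 35 had 5 or more. Those 35 had a median span of 59.2 kb, against 1.65 kb over all genes. CG43658, Eip75B, an ecdysone-induced nuclear receptor, and fru, a regulator of sex-specific behaviour, had 8 each. At fru 7 of the 8 were in both replicates' lists, and at Eip75B 1 of the 8. The genes with 7 were the muscle transcription factor Mef2, the RNA-binding gene bru3, bun, px and shep, and those with 6 were CG31145, Pde11, Ptp99A, Trpm, bbg, lncRNA:CR46030 and shot. Of the 7 peaks at bru3, which spans 281 kb, all lay in introns, and 0 conservative peaks were nearest to it. In CDS the 898 low-ranked peaks lay in 842 genes. The giant muscle protein gene bt on chromosome 4 had 4, and Dscam3, Zn72D, fz, hlk, mid and sba had 3 each.

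The 10 low-ranked peaks of highest signal lay between 42.570 and 42.594. Their nearest start sites belonged to MetRS, side-II, flw, lncRNA:CR34052, CG4763, CG17839, lncRNA:CR45183, Trpm, CG30178 and Nadsyn. The MetRS peak (methionyl-tRNA synthetase) lay 99 bp upstream of the start site with 19.8% GC against 55.0% in its flanks, a dip of the conservative kind, and had 21.5 in replicate 1 and 20.9 in replicate 2. The Trpm peak (a cation channel gene) lay in CDS with 65.3% GC against 35.1%, and had 14.2 and 27.5. The peak at lncRNA:CR45183, in an intron of sick, had 16.8% GC against 39.6%, and 11.3 and 34.7. The flw peak was in replicate 2 only at 22.6 and the Nadsyn peak, in CDS of Nna1, in replicate 1 only at 21.02. So neighbours in signal differed in feature, base composition and replicate support.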

How the data were processed

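The authors deposited narrowPeak lists on dm6, per the labels. The deposited signal is the value the authors' peak caller gave each peak, made from both replicates' alignments for the series lists and from single libraries for the replicates' lists, per the file lists, and its scale is unstated. The deposited score is a whole number the authors made from the IDR, and their −log10 columns hold the IDR itself. Aligner and peak caller were not given in the sources used here. Read depth and control values were not analysed here. Peaks carry no read counts, so depth is unknown.

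The lists were joined and the low-ranked peaks selected by signal, as described above. Genes came from Ensembl 115 on BDGP6.54 (18277 genes, 24111 start sites) and sequence from the RefSeq Release 6 genome, whose arm names and lengths were compared with the lists. Overlaps, motif matches and GC were tested on simulated data and against bedtools 2.31.1. Python 3.11.15, numpy 2.4.6, pandas 2.3.3 and scipy 1.17.1 were used. Windows were 101 bp, and 23 motifs and 31 gene lists (312 entries, 6 matched by synonym, 2 unmatched) were used. The low-ranked peaks, lists and comparisons were chosen with earlier results of these data known, and nothing was tested for significance. Named genes were those nearest to the 10 strongest low-ranked peaks, those with most low-ranked peaks, up to 3 per list by signal, and those beside printed sequences, where 1 window overlapping a UTR was passed over. A gene that this rule names is not reported here. GC groups were added after values were seen. Alternatives changed the signal boundary, list, distance to thresholded peaks, promoter width, window, masking and replicate. Coordinates are 1-based.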

Additional observations from a re-analysis of the deposited data

How the results depend on the processing

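With the lower 25% of the joined list 2517 peaks were left. The GC difference was then 4.36 points, the upstream share 50.5%, the GAGAG share 11.7% and the share in both replicates 56.7%. With the lower 75% they were 1.71 points for GC, 23.3% for promoters, 57.9% for upstream and 66.96% for both replicates. Leaving out soft-masked summits gave 4.86 points and 49.7% upstream. Promoters of 250 and 1000 bp held 12.4% and 32.5% of summits, with 55.8% and 47.1% upstream. Windows of 25 and 100 bp to each side held GAGAG in 6.88% and 22.96%. The share in both replicates was 65.7% in the first series list alone, 65.4% in the second alone and 50.7% when summits had to lie within 100 bp. The selection was never repeated without a replicate. With the other replicate left out of the measurement alone, over the low-ranked peaks that 1 replicate held and at its summits, the GC difference lay between 3.23 and 3.87 points, the promoter share between 18.9 and 21.5%, the upstream share between 50.6 and 52.6% and GAGAG between 12.2 and 12.7%. The cause of these shifts was not tested beyond the construction of each alternative. The GC difference kept its sign in every alternative run. No paired analysis was possible because the series has 1 group. Depth and control signal were not analysed here, so a weak peak cannot be told from uneven background, and a promoter without a listed peak may lie below detection.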
